A study of Mus musculus with 12 samples.

Results

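The 10 genes described here encode core parts of the Notch signalling pathway, and were taken as a list of named genes. They are the receptors *Notch1*, *Notch2* and *Notch3*, the ligands *Jag1* and *Jag2*, the receptor-modifying enzyme *Lfng*, and the target genes *Hes1*, *Hes5*, *Hey1* and *Nrarp*. The count files listed 46517 genes by Ensembl identifier, and all 10 members were found among them after matching to GENCODE M21. RNA with a poly(A) tail was sequenced from 12 samples of a mouse ESC line in which EGFP had been inserted at the endogenous *Eomes* gene, on a C57BL/6 strain background. There were 3 WT and 3 *Meteor* KO samples of undifferentiated ESCs (day 0), which were grown on mouse embryonic fibroblast feeders. There were also 3 WT and 3 *Meteor* KO samples at day 3 of cardiac differentiation, when the cells had been aggregated in hanging drops to form embryoid bodies. The reporter allele is shared by all 4 groups, and the KO cells additionally lack the *Meteor* enhancer together with the transcription start of its lncRNA, a deletion made with the CRISPR-Cas9 nickase. KO lines were expanded from single picked clones, and the study describes an additional clone for assays other than sequencing, so the KO libraries appear to come from 1 clone, and an effect of the deletion and an effect of that clone cannot be told apart. Nothing in the labels says that replicates came from separate cultures, and p-values then measure only the spread between these samples.

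The reads assigned to genes numbered from 17455927 to 23910943 in a sample, so that 1 CPM (a gene's reads scaled to a common library size, here with TMM factors) is close to 20 reads. The labels of genotype were checked at the deleted locus. *2610509F24Rik* had between 1.35 and 5.84 CPM in the WT samples and 0 in all KO samples, and *Platr11* had at least 0.513 CPM in WT and at most 0.0551 CPM in KO. *Upf3b*, a gene of nonsense-mediated decay outside that locus, had at least 45.4 CPM in every WT sample and at most 0.661 CPM in every KO sample, and its part in the results below was not tested. Both WT libraries numbered 3 stood apart from their group in marker genes of other cell types. The day 0 library reached a summed level of 161 CPM over 8 mesendoderm markers, against 42.3 and 71.1 CPM in the other two. The day 3 library reached 408 CPM over 8 endothelial and blood markers, against 43.8 and 48.7 CPM. It was also high in 6 extraembryonic endoderm markers (174 CPM, against 50.3 and 54.7) and in feeder fibroblast markers (143 CPM, against 64.0 and 63.0). Its sums were low for mesendoderm markers (932 CPM, against 1817 and 1603) and pluripotency markers (596 CPM, against 1108 and 1118). Where leaving out either WT library numbered 3 changed a call of a member, or a value rested on it, the value without it is given.

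Notch receptors are single-pass membrane proteins that are activated by ligands on a neighbouring cell. Ligand binding leads to cleavage of the receptor by an ADAM metalloprotease and then by gamma-secretase, which frees the intracellular domain to enter the nucleus. There it joins RBPJ, a DNA-binding protein, and a Mastermind-like coactivator to switch on targets such as the HES and HEY transcriptional repressors. In the early embryo the pathway is known for its part in somite formation, in the choice between neural and other fates, and in blood vessel and heart development.

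RBPJ binds DNA around a short core that reads TGGGAA, or TTCCCA on the other strand, and this core was searched for on both strands of the RefSeq promoter windows (GRCm38.p6), each running from 250 bases before to 50 bases after a transcription start. Of 32851 windows of that length, 25.6% held at least 1 match, 3.79% held at least 2 and 1.81% held a match in each orientation. Windows were found for 8 of the 10 members, and the windows of 2 of them, *Hes5* and *Lfng*, held matches. Among 33 other genes of the pathway with a window, 12 of their 46 windows held a match. The 250 bases upstream of the start are shown for *Hes5* (chr4:154960673-154960922, plus strand) and *Lfng* (chr5:140607091-140607340, plus strand), because both held a match in each orientation. The same stretch is shown for *Nrarp* (chr2:25180508-25180757, plus strand), the target gene with the largest difference between genotypes at day 3, in which these letters were not found. Capitals mark the core.

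Hes5: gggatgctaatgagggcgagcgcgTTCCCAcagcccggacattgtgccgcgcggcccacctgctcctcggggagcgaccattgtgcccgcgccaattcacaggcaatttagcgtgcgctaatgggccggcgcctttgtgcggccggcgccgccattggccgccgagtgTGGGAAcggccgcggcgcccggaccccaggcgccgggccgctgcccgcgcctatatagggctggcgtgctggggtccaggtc
Lfng: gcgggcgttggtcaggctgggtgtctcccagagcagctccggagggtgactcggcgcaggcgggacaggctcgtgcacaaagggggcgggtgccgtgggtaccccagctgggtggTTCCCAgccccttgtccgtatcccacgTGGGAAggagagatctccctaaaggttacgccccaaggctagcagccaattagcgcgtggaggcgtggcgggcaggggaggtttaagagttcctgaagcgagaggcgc
Nrarp: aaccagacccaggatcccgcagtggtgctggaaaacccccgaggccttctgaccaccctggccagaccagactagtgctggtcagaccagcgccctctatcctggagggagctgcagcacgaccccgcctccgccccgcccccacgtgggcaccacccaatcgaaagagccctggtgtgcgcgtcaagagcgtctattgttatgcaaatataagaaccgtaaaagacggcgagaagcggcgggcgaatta

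In the *Hes5* window the matches began 226 and 82 bases before the start, with 138 bases between them. In the *Lfng* window they began 135 and 108 bases before the start, with 21 bases between them. In the values below, *Hes5* was among the members that changed, and *Lfng* passed no test. A match is a run of letters and was not tested as a binding site.

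In the undifferentiated cells, 3 of the 10 members were lower in KO than in WT and none was higher, namely the receptor *Notch3*, the ligand *Jag1* and the target *Hes5*. At day 3, *Jag1* and the target *Nrarp* were lower in KO and no member was higher. The calls are those of edgeR's quasi-likelihood test with an adjusted p-value (Benjamini-Hochberg over 15673 tested genes) under 0.05, in a single fit of all 12 samples with the replicate number as a block. Of all tested genes, 20.4% were called at day 0 (9.56% higher and 10.9% lower in KO) and 30.9% at day 3 (14.3% higher and 16.7% lower). In this fit the counts of 3 and 2 of 10 members are thus near the background at both days. The median log2 fold change was -0.53 over the members and -0.01 over all tested genes at day 0, and -0.09 and -0.00 at day 3. By level alone, the CPM ranges of KO and WT did not overlap for 6 members at day 0 (*Notch1* and *Hes1* higher in KO, *Notch2*, *Notch3*, *Jag1* and *Hes5* lower), against 34.2% of all tested genes (16.8% higher and 17.4% lower). At day 3 they did not overlap for 4 members (*Notch3* and *Hes5* higher, *Jag1* and *Nrarp* lower), against 43.8% of all tested genes (20.8% higher and 23% lower). The replicate number was instead also fitted as a block within each day, which is how WT and KO samples deviated together. With that block 9 members were called at day 0 and 5 at day 3, and 34.8% and 46.9% of all tested genes were called. *Notch1* and *Hes1* were then called higher in KO at day 0, and *Notch3* and *Hes5* at day 3. The day 0 count of members was above the background with that block, so its reading depends on the block, while the day 3 count stayed near it. The comparisons share samples, since the WT samples of a day are the reference for KO and also enter the comparison of the days. In bulk RNA, fewer cells of a type and less RNA per cell cannot be told apart.

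**Figure D1:**
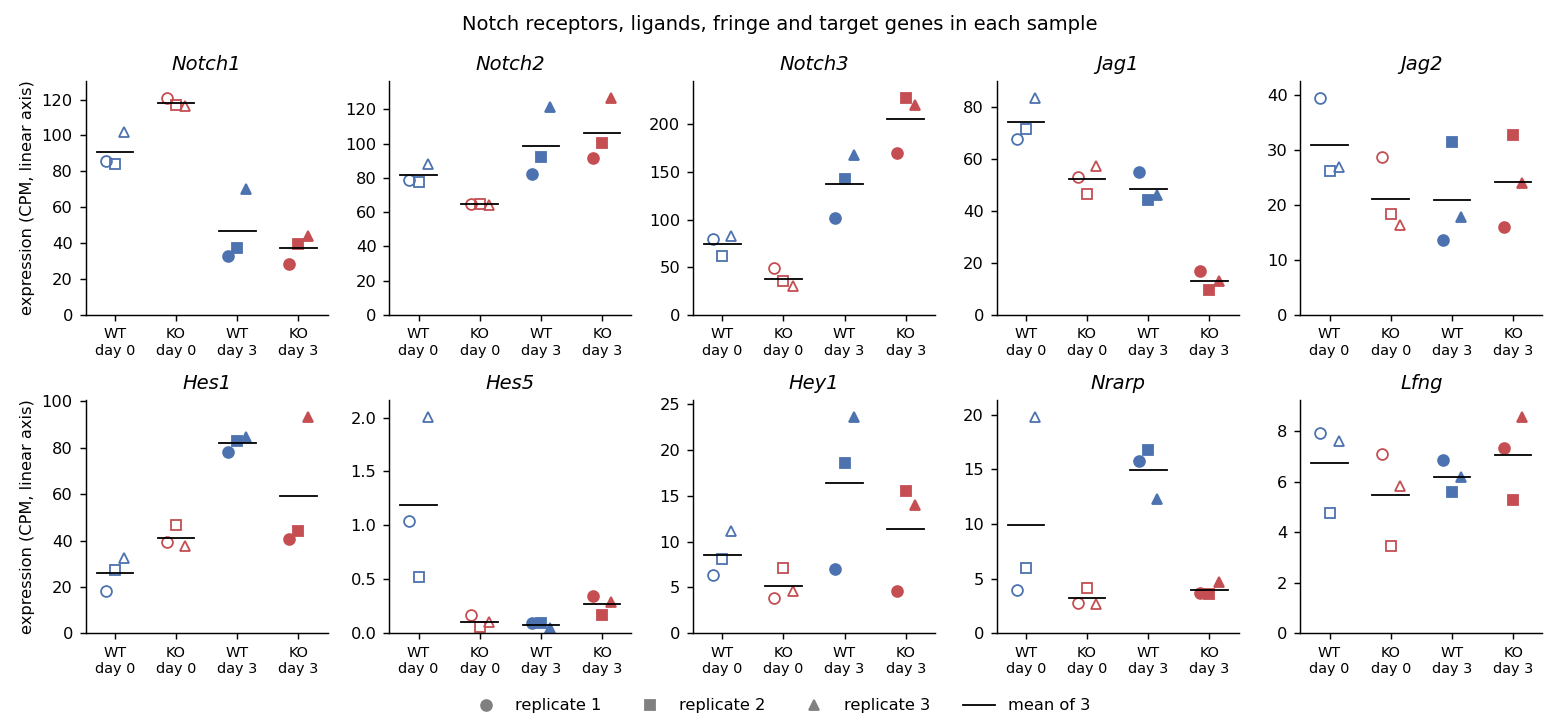
CPM (linear axis) of each of the 10 members in every sample, with a panel for each gene, a point for each of the 3 replicates (open at day 0, filled at day 3) and a bar at the mean of WT (blue) and KO (red). The *Jag1* values of KO at day 3 (9.37 to 17.0 CPM) lie below all others of that gene, while the 3 *Notch3* values of KO at day 3 (170.1 to 227 CPM) lie above all others of that gene.

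*Notch3*, a receptor best known from smooth muscle and pericytes, spread the most of the 3 receptors over the groups. It had 79.5, 61.4 and 83.2 CPM in WT at day 0 and 49.0, 35.2 and 29.9 CPM in KO. The day 3 values were 102, 143 and 168 CPM in WT and 170.1, 227 and 220.2 CPM in KO. No neighbouring groups overlapped in the order KO day 3, WT day 3, WT day 0, KO day 0. The day 0 log2 fold change of KO over WT was -0.96 ± 0.23 (SE, edgeR adjusted p = 0.0158). This call was lost without WT day 0 replicate 1 (-0.86, adjusted p = 0.0591) or 3 (-0.91, 0.0625), without KO day 0 replicate 2 (-0.91, 0.0705) or 3 (-0.73, 0.0707), and without both WT libraries numbered 3 (-0.85, 0.0682). At day 3 the log2 fold change was 0.59 ± 0.22, which missed the threshold (adjusted p = 0.0717) and passed it with the block within each day (0.60, adjusted p = 0.00449) and without WT day 3 replicate 3 (0.79, adjusted p = 0.0492). The KO effect differed between the days by 1.55 ± 0.32 on the log2 scale (edgeR adjusted p = 0.0111), and this difference was called under all 21 alternatives run. Over time *Notch3* rose in both genotypes, by 0.88 ± 0.23 in WT (adjusted p = 0.00805) and by 2.43 ± 0.24 in KO (adjusted p = 2e-05).

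*Notch1*, a receptor needed for orderly somite and vessel formation in the mouse embryo, ran the other way over time. It had 85.8, 84.3 and 102 CPM in WT and 121, 117 and 116 CPM in KO at day 0, and the 3 KO samples were above the 3 WT samples. By day 3 the values were 32.9, 37.0 and 70.0 CPM in WT and 28.2, 39.7 and 44.0 CPM in KO, with overlapping groups. The highest of the WT values at day 3 was that of replicate 3, the library that stood apart in several marker sums. The part of these markers in that value was not tested. *Notch1* fell with differentiation, by 1.01 ± 0.19 on the log2 scale in WT (edgeR adjusted p = 0.00153) and by 1.70 ± 0.20 in KO (adjusted p = 5.65e-05). Between genotypes its log2 fold change was 0.40 ± 0.19 at day 0 (adjusted p = 0.17) and -0.29 ± 0.19 at day 3 (adjusted p = 0.285). Without WT day 3 replicate 3 the day 3 value was 0.04. With the block within each day, *Notch1* was called higher in KO at day 0 (0.39, adjusted p = 0.0357), and the KO effect was called as different between the days (-0.66, adjusted p = 0.0201).

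*Notch2*, the most evenly expressed of the receptors, had 79.0, 77.3 and 87.9 CPM in WT and 65.0, 64.9 and 64.3 CPM in KO at day 0. All KO samples were below all WT samples, with a log2 fold change of -0.32 ± 0.11 that missed the threshold (edgeR adjusted p = 0.0603) and passed it with the block within each day (-0.33, adjusted p = 0.00336). At day 3, values of 82.2, 92.4 and 121 CPM in WT and 91.8, 100.3 and 126 CPM in KO overlapped (0.11 ± 0.11, adjusted p = 0.468). It rose over time in KO, by 0.70 ± 0.11 on the log2 scale (adjusted p = 0.000381), and had a log2 fold change of 0.26 ± 0.11 in WT (adjusted p = 0.0599). The change in WT was called under 1 of its 15 alternatives, a fit that left out 1 library (adjusted p = 0.0342). The KO effect at day 3 minus that at day 0 was 0.43 ± 0.15 (adjusted p = 0.081), which was called with the block within each day (0.44, adjusted p = 0.00529) and without WT day 3 replicate 3 (0.57, adjusted p = 0.04).

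To set different genes beside each other, each receptor's CPM was divided by the kilobases of its exons and taken as a share of the sum over *Notch1* to *Notch4*. The length, here and for the ligands below, counts every base in any annotated exon of a gene, which can exceed the length of a single transcript. It was 14.2 kb for *Notch1*, 10.8 kb for *Notch2*, 8.09 kb for *Notch3* and 8.06 kb for *Notch4*. The order of the genes by share depends on this choice, and other lengths were not tried. The sum was 25.4 ± 2.0 CPM per kb in WT and 22.1 ± 1.70 in KO at day 0, and 30.3 ± 7.30 and 38.4 ± 5.66 at day 3 (SD, n = 3). In WT at day 0 *Notch3* made up 36.2% of it, *Notch2* 29.7% and *Notch1* 25.0%. In KO at day 0 *Notch1* was the largest share with 37.6%, and *Notch3* made up 21.1%. At day 3 *Notch3* was the largest share in both genotypes, with 56.2% in WT and 66.4% in KO, while *Notch1* made up 10.6% and 6.77%. The *Notch3* shares of the groups did not overlap, ranging from 18.2% to 25.6% in KO and 32.5% to 38.3% in WT at day 0, and from 54.0% to 59.7% in WT and 64.1% to 69.1% in KO at day 3.

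**Figure D2:**
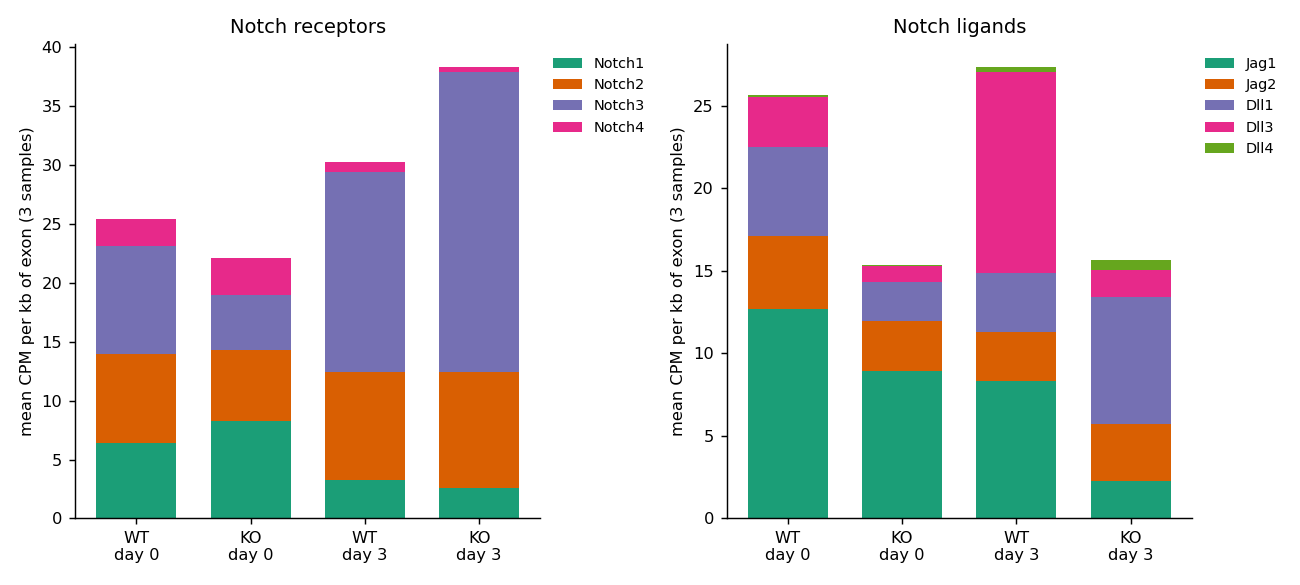
Mean level in CPM per kb of exon of the receptors (left) and the ligands (right), stacked for each group of 3 samples. *Notch3* takes 36.2% of the receptor sum in WT and 21.1% in KO at day 0, and 56.2% and 66.4% at day 3. The ligand sum, which includes the atypical *Dll3*, is lower in KO than in WT at both days. At day 3 *Dll3* has the widest gap of the ligands.

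*Jag1*, the ligand needed for vessel remodelling in the mouse embryo, had the smallest adjusted p-value of the members at day 3. It had 67.4, 71.5 and 83.1 CPM in WT and 52.9, 46.6 and 57.0 CPM in KO at day 0, and 54.7, 44.1 and 46.1 CPM in WT and 17.0, 9.37 and 13.2 CPM in KO at day 3. KO was below WT at both days without overlap, and WT at day 3 overlapped with KO at day 0. At day 3 the log2 fold change was -1.89 ± 0.16 (edgeR adjusted p = 7.27e-05), which held under all 16 alternatives run. At day 0 it was -0.51 ± 0.15 (adjusted p = 0.0382). The day 0 call was lost without the block (-0.50, adjusted p = 0.0721), without WT replicate 2 (-0.42, 0.14) or 3 (-0.44, 0.152), without KO replicate 1 (-0.45, 0.122), 2 (-0.53, 0.107) or 3 (-0.56, 0.0884), and without both WT libraries numbered 3 (-0.47, 0.15). *Jag1* fell over time in WT (-0.62 ± 0.15, adjusted p = 0.00582) and in KO (-2.0 ± 0.16, adjusted p = 5.81e-06). The fall in WT was no longer called without both WT libraries numbered 3 (-0.51, adjusted p = 0.0592). The KO effect at day 3 minus that at day 0 was -1.38 ± 0.22 (edgeR adjusted p = 0.00326), called under all 21 alternatives.

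*Jag2*, a second ligand of the Serrate type, did not pass the test in any comparison. It had 39.3, 26.2 and 26.9 CPM in WT and 28.7, 18.3 and 16.3 CPM in KO at day 0, and 13.6, 31.4 and 17.8 CPM in WT and 16.0, 32.7 and 24.0 CPM in KO at day 3. All neighbouring groups overlapped, but at each day the WT and KO samples of one replicate number were high or low together. Against WT, KO had a log2 fold change of -0.55 ± 0.34 at day 0 (edgeR adjusted p = 0.287) and 0.23 ± 0.34 at day 3 (adjusted p = 0.646). The day 0 value was -0.23 without WT replicate 1 (adjusted p = 0.726), -0.33 without KO replicate 2 (adjusted p = 0.628) and -0.97 without KO replicate 1 (adjusted p = 0.101). With the block within each day the day 0 value was called (-0.56, adjusted p = 0.00238), and so was the KO effect at day 3 minus that at day 0 (0.80, adjusted p = 0.00301), while day 3 was not (0.24, adjusted p = 0.0778). From day 0 to day 3 the log2 fold change was -0.60 ± 0.34 in WT (adjusted p = 0.161) and 0.18 ± 0.34 in KO (adjusted p = 0.678).

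Over the 5 ligand genes of the Jagged and Delta-like families (*Jag1*, *Jag2*, *Dll1*, *Dll3* and *Dll4*, without the non-canonical *Dlk1* and *Dlk2*), the sum per length was 25.6 ± 0.435 CPM per kb in WT and 15.3 ± 1.93 in KO at day 0, and 27.4 ± 2.54 and 15.6 ± 6.12 at day 3 (SD, n = 3). The highest KO sample was below the lowest WT sample at both days, with 17.4 against 25.2 CPM per kb at day 0 and 22.3 against 24.5 at day 3. *Jag1* made up 49.5% of the sum in WT and 58.8% in KO at day 0. At day 3 its share was 30.7% in WT and 16.5% in KO. *Dll3* was the largest share in WT at day 3 with 44.4%, and *Dll1* in KO at day 3 with 45.2%. *Dll3*, an atypical ligand that works inside the cell, is part of these sums. At day 3 its mean was 12.2 CPM per kb in WT and 1.59 in KO, the widest gap of the 5 genes. *Jag1* was also lower in KO (8.29 and 2.26 CPM per kb), while the means of *Jag2*, *Dll1* and *Dll4* were higher in KO. The lower sum at day 3 thus leans on *Dll3*, and a sum without it was not taken. *Dll1* in KO at day 3 was uneven, with 14.3, 24.0 and 59.2 CPM.

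*Lfng* encodes Lunatic fringe, a glycosyltransferase that adds sugars to Notch receptors and so alters which ligands they answer to. It had 7.91, 4.74 and 7.60 CPM in WT and 7.11, 3.47 and 5.82 CPM in KO at day 0, and 6.85, 5.58 and 6.18 CPM in WT and 7.34, 5.28 and 8.57 CPM in KO at day 3. The groups overlapped throughout, and *Lfng* was the only member that passed the test in none of the comparisons and under no alternative. Its log2 fold change of KO against WT was -0.32 ± 0.19 at day 0 (edgeR adjusted p = 0.276) and 0.16 ± 0.19 at day 3 (adjusted p = 0.552). Over time it was -0.09 ± 0.19 in WT (adjusted p = 0.721) and 0.39 ± 0.19 in KO (adjusted p = 0.102). The KO effect at day 3 minus that at day 0 was 0.48 ± 0.27 (adjusted p = 0.258).

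*Nrarp* encodes a small ankyrin-repeat protein that is induced by Notch and dampens it in a feedback loop. At day 3 it had 15.8, 16.8 and 12.3 CPM in WT and 3.65, 3.64 and 4.66 CPM in KO, so every KO sample was far below every WT sample. The log2 fold change was -1.96 ± 0.47 (edgeR adjusted p = 0.011), and this call was lost without KO day 3 replicate 3 (-1.86, adjusted p = 0.0542). At day 0 it had 3.98, 5.94 and 19.8 CPM in WT and 2.80, 4.18 and 2.65 CPM in KO. The high WT value was that of replicate 3, the library with the high mesendoderm markers, in which *T* had 77.3 CPM against 4.64 and 6.41 CPM in the other WT libraries, and the part of these markers in it was not tested. The log2 fold change at day 0 was -1.47 ± 0.48 (adjusted p = 0.058), which was called with the block within each day (-1.36, adjusted p = 0.0348), without the block (-1.62, adjusted p = 0.0352) and without WT day 0 replicate 1 (-1.89, adjusted p = 0.0226). Without WT day 0 replicate 3 it was -0.58 (adjusted p = 0.202), and without KO day 0 replicate 3 it was -1.08 (adjusted p = 0.249). From day 0 to day 3 it was 0.78 ± 0.46 in WT (adjusted p = 0.174) and 0.29 ± 0.48 in KO (adjusted p = 0.637). Without WT day 0 replicate 3 the rise in WT was 1.65 on the log2 scale and was called (adjusted p = 0.00113). Without that library the KO effect at day 3 minus that at day 0 was also called, at -1.31 (adjusted p = 0.0457), against -0.49 ± 0.67 with it (adjusted p = 0.672).

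*Hes1*, a repressor of differentiation genes that oscillates in many progenitor cells, had 18.2, 27.1 and 32.3 CPM in WT and 39.5, 46.5 and 37.5 CPM in KO at day 0, without overlap. The day 3 levels were 78.3, 83.0 and 84.6 CPM in WT and 40.7, 44.3 and 93.3 CPM in KO, of which replicate 3 was above all WT samples and the others were far below. The log2 fold change was 0.72 ± 0.24 at day 0 (edgeR adjusted p = 0.0615) and -0.53 ± 0.24 at day 3 (adjusted p = 0.112). At day 0 *Hes1* was called under 5 of the 16 alternatives run. Among them were the block within each day (0.69, adjusted p = 0.0374) and leaving out 1 library (lowest adjusted p = 0.0308). It was called at day 3 without KO day 3 replicate 3 (-0.87, adjusted p = 0.0132). In WT it rose over time by 1.70 ± 0.24 (adjusted p = 0.000273), while in KO the change was 0.45 ± 0.24 (adjusted p = 0.131), and 0.08 without KO day 3 replicate 3 (adjusted p = 0.751). That difference between the genotypes was -1.25 ± 0.34 (edgeR adjusted p = 0.0333). It missed the threshold without the block (-1.13, adjusted p = 0.083) and in 9 of the 12 fits that left out 1 library, each except WT day 3 replicate 3, KO day 0 replicate 3 and KO day 3 replicate 3, with adjusted p-values up to 0.0984. It also missed it without both WT libraries numbered 3 (-1.42, adjusted p = 0.0603).

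*Hes5*, a Notch-dependent repressor best known from neural progenitors, was close to the limit of detection in most samples. It had 1.04, 0.521 and 2.01 CPM in WT at day 0, which were 19, 10 and 38 reads, and 0.168, 0.0551 and 0.102 CPM in KO, which were 3, 1 and 2 reads. At day 3 it had 2, 2 and 1 reads in WT and 7, 3 and 7 reads in KO. WT at day 0 was above all other groups. The log2 fold change at day 0 was -3.34 ± 0.53 (edgeR adjusted p = 0.00247), called under all 15 alternatives in which the gene was tested. WT replicate 3 held 38 of the 67 WT reads, and without it the value was -2.74 (adjusted p = 0.015). From the summed reads, WT was 11 times KO at day 0, with an exact 95% interval of 4.80 to 31.0 that covers counting error only. At day 3 KO was 3.49 times WT (1.24 to 12.1) and the log2 fold change was 1.66 ± 0.64 (adjusted p = 0.0729), which passed the threshold with the block within each day (1.71, adjusted p = 0.0479) and was 1.13 without WT day 3 replicate 3 (adjusted p = 0.312). In WT *Hes5* fell over time (-3.72 ± 0.55, adjusted p = 0.000324), and in KO the change was 1.28 ± 0.62 (adjusted p = 0.104). The KO effect at day 3 minus that at day 0 was 5.0 ± 0.84 (edgeR adjusted p = 0.00433). The summed level of 8 neural markers was between 101 and 186 CPM in WT and between 42.4 and 55.0 CPM in KO at day 0, most of it from *Nes* (86.6 to 163 CPM in WT and 33.6 to 41.8 CPM in KO). Another of them, *Sox1*, had 0.655, 2.24 and 2.75 CPM in WT and 2.13, 4.68 and 6.68 CPM in KO. Of these markers, 4 in WT and 5 in KO were under 1 CPM in every sample of day 0. At day 3, where *Hes5* had more reads in KO, the sum was between 92.9 and 163 CPM in WT and between 63.2 and 88.0 CPM in KO. Most of it was again *Nes* (87.7 to 161 CPM in WT and 54.9 to 79.2 CPM in KO). *Sox1* then had 1.07, 1.54 and 0.571 CPM in WT and 7.69, 4.89 and 4.41 CPM in KO. *Pax6* had 0.606, 1.11 and 1.14 CPM in WT and 2.90, 2.44 and 3.29 CPM in KO. Of the 5 neural markers tested, 2 were called higher and 1 lower in KO at day 3. The part of these markers in the *Hes5* values was not tested.

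*Hey1*, a HES-related repressor of the developing heart and vessels, had 6.33, 8.13 and 11.2 CPM in WT and 3.86, 7.10 and 4.59 CPM in KO at day 0, and 6.99, 18.6 and 23.6 CPM in WT and 4.60, 15.5 and 14.0 CPM in KO at day 3. The groups overlapped at both days, and replicate 1 was the lowest of each group at day 3. KO against WT gave a log2 fold change of -0.72 ± 0.30 at day 0 (edgeR adjusted p = 0.12) and -0.53 ± 0.29 at day 3 (adjusted p = 0.184). The day 3 value was -0.27 without WT day 3 replicate 3 (adjusted p = 0.584). With the block within each day *Hey1* was called lower in KO at both days (-0.73, adjusted p = 0.0227, and -0.54, adjusted p = 0.0422). It rose over time in WT (0.81 ± 0.29, adjusted p = 0.0356) and in KO (1.01 ± 0.30, adjusted p = 0.0159). The rise in WT was no longer called without the block (0.94, adjusted p = 0.116), without WT day 0 replicate 2 (0.58, 0.161) or 3 (0.83, 0.0913), without WT day 3 replicate 2 (0.83, 0.072) or 3 (0.54, 0.181), and without both libraries numbered 3 (0.66, 0.166). The rise in KO was no longer called without the block (1.13, adjusted p = 0.0679), or without KO day 0 replicate 3 (0.70, 0.0794) or KO day 3 replicate 2 (0.81, 0.0823) or 3 (0.94, 0.0539). The KO effect differed between the days by 0.19 ± 0.41 (adjusted p = 0.803).

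**Figure D3:**
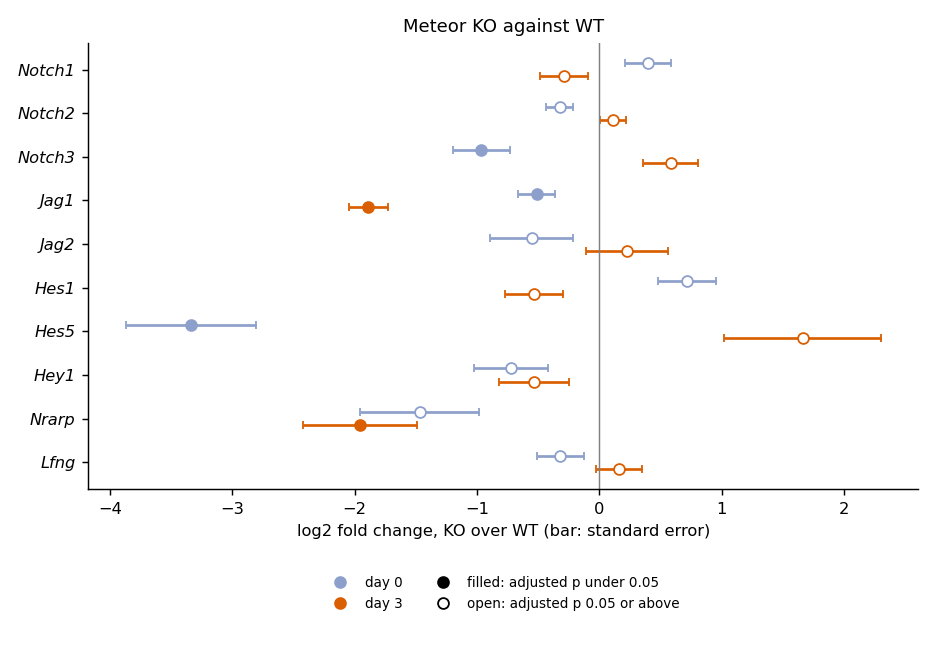
Log2 fold change of KO against WT at day 0 and at day 3 for the 10 members, with bars of 1 SE. Filled points have an adjusted p-value under 0.05 (edgeR) and open points do not, which leaves *Notch3*, *Jag1* and *Hes5* filled at day 0 and *Jag1* and *Nrarp* filled at day 3, all of them lower in KO.

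From day 0 to day 3 in WT, 6 of the 10 members changed, *Notch3*, *Hes1* and *Hey1* upward and *Notch1*, *Jag1* and *Hes5* downward, where 56.2% of all tested genes were called (30.7% upward and 25.5% downward). In KO 5 members changed, *Notch2*, *Notch3* and *Hey1* upward and *Notch1* and *Jag1* downward, where 56.6% of all tested genes were called (29.4% upward and 27.2% downward). The median log2 fold change over the members was 0.09 in WT and 0.42 in KO, and over all tested genes 0.07 and 0.03. The difference of the KO effect between the days, which is the same number as the difference of the time course between the genotypes, was called for 4 members and for 15.5% of all tested genes (8.21% positive and 7.34% negative). It was positive for *Notch3* and *Hes5* and negative for *Jag1* and *Hes1*. With the block within each day it was called for 7 members and 31.2% of all tested genes.

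**Figure D4:**
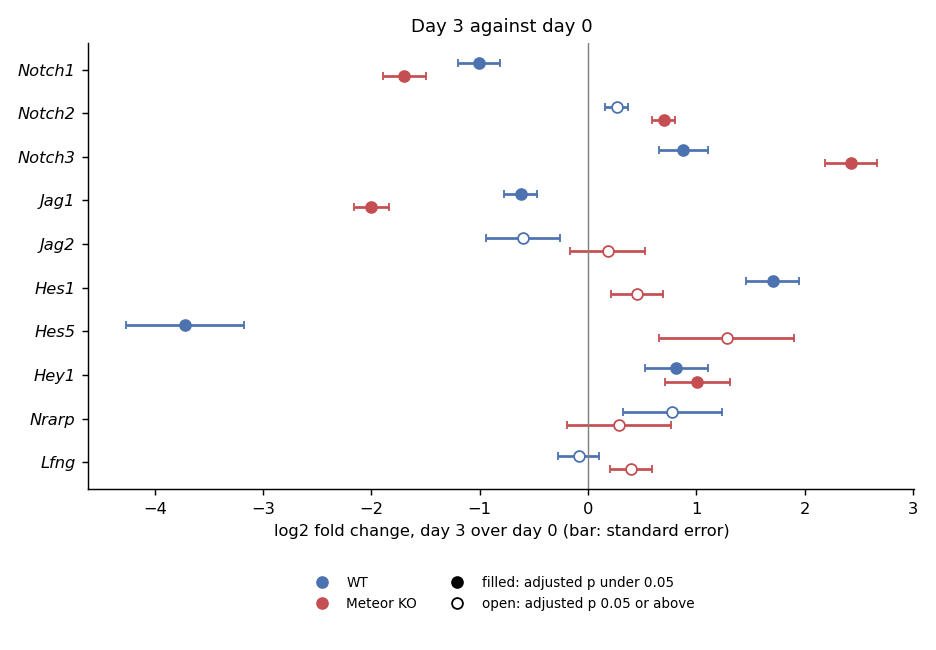
Log2 fold change of day 3 against day 0 in WT and in KO for the 10 members, with bars of 1 SE and filled points where the adjusted p-value was under 0.05 (edgeR). *Notch3* rose by 0.88 in WT and 2.43 in KO, *Notch1* and *Jag1* fell in both, and *Hes5* fell in WT with a value of -3.72.

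At day 3 the summed levels of mesendoderm and presomitic mesoderm markers were lower in KO, while those of pluripotency and feeder markers overlapped between the genotypes. Over 8 mesendoderm markers, the summed level at day 3 ranged from 932 to 1817 CPM in WT and from 76.7 to 152 CPM in KO, and 2 of the 8 were under 1 CPM in every KO sample. Most of the KO sum came from *Eomes* (54.6 to 144 CPM in KO and 260 to 479 CPM in WT). Each other marker had at most 13.5 CPM in KO. Over 7 presomitic mesoderm markers, a tissue in which *Lfng*, *Nrarp*, *Dll1* and *Dll3* are known to be active, it ranged from 192 to 204 CPM in WT and from 7.10 to 11.5 CPM in KO, and 4 of the 7 were under 1 CPM in every KO sample. Most of the WT sum came from *Cyp26a1* (57.3 to 129 CPM) and *Fgf8* (42.7 to 124 CPM). *Tbx6*, *Msgn1*, *Mesp2* and *Wnt3a* had between 0.761 and 9.13 CPM in WT. All 6 markers tested were lower in KO. *Ripply2*, which was not tested, had at most 0.143 CPM in WT and 0.150 to 0.291 CPM in KO. *Nrarp* and *Dll3* were lower in KO beside the lower sum of these markers, while *Lfng* and *Dll1* were not called. The 6 pluripotency markers summed to between 596 and 1118 CPM in WT and between 1094 and 1186 CPM in KO at day 3, and these sums overlapped. At day 0 they did not, with 2613 to 3111 CPM in WT and 3462 to 3847 CPM in KO. The 10 markers of feeder fibroblasts summed at day 0 to 95.7, 324 and 178 CPM in WT and 154, 428 and 284 CPM in KO, so that KO was above WT at each replicate number, and at day 3 to between 63.0 and 143 CPM in WT and between 48.0 and 98.4 CPM in KO. The part of any of these cell types in the values of the members was not tested.

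The other genes of the pathway were taken from a list of 43, of which 40 were tested. Of these, 5 were higher and 7 lower in KO at day 0, and 7 were higher and 13 lower at day 3. These are 12 and 20 of 40, where 20.4% and 30.9% of all tested genes were called. The median log2 fold change of the 40 was -0.04 at day 0 and -0.03 at day 3. The number called fell when any single library was left out at day 0, to between 4 (without KO replicate 3) and 9 (without KO replicate 1). The other values at day 0 were 7, 8 and 5 without WT replicate 1, 2 and 3, and 6 without KO replicate 2. At day 3 it was 17, 15 and 13 without WT replicate 1, 2 and 3, and 18, 12 and 9 without KO replicate 1, 2 and 3. With the block within each day 19 were called at day 0 and 25 at day 3, where 34.8% and 46.9% of all tested genes were called.

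At the receptor and ligand step, *Dll3*, an atypical ligand of the presomitic mesoderm that works inside the cell, was the most reduced gene of the list at day 3. It had 7.69, 9.07 and 9.56 CPM in WT and 3.97, 2.09 and 2.04 CPM in KO at day 0, and 29.7, 36.1 and 38.4 CPM in WT and 4.85, 4.32 and 4.45 CPM in KO at day 3. KO differed from WT by a log2 fold change of -1.71 ± 0.25 at day 0 (edgeR adjusted p = 0.00168) and -2.94 ± 0.24 at day 3 (adjusted p = 7.08e-05). *Dlk1*, a non-canonical ligand, was lower in KO at day 3 (-1.22 ± 0.36, adjusted p = 0.0289), a call lost without WT day 3 replicate 3 (-0.62, 0.121) and without KO day 3 replicate 1 (-1.24, 0.0688) or 3 (-0.93, 0.155). *Mfng*, another fringe enzyme, was higher in KO at day 3 (0.82 ± 0.19, adjusted p = 0.00912). *Poglut1*, which adds glucose to Notch repeats, was higher in KO at day 0 (0.54 ± 0.16, adjusted p = 0.0432), and so was *Mib2*, a ubiquitin ligase for ligand uptake (0.46 ± 0.14, adjusted p = 0.0441). The *Poglut1* call was lost without any 1 of the day 0 libraries other than KO replicate 1 (0.42 to 0.63, adjusted p up to 0.185), and the *Mib2* call without any other than WT replicate 2 (0.30 to 0.54, adjusted p up to 0.185).

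At the cleavage step, *Adam10*, the metalloprotease of the first cut, was higher in KO at day 0 (0.42 ± 0.12, edgeR adjusted p = 0.0319) and lower at day 3 (-0.63 ± 0.12, adjusted p = 0.00314). Its day 0 call was lost when any 1 of the 6 day 0 libraries was left out (0.34 to 0.46, adjusted p up to 0.142). The gamma-secretase subunit *Ncstn* was higher in KO at day 0 (0.51 ± 0.10, adjusted p = 0.00506) and at day 3 (0.34 ± 0.10, adjusted p = 0.024). Another subunit, *Aph1b*, was lower at both days (-0.99 ± 0.28, adjusted p = 0.0354, and -1.46 ± 0.25, adjusted p = 0.00218), and its day 0 call was likewise lost without any 1 of them (-1.19 to -0.66, adjusted p up to 0.117). It had 13.7, 15.9 and 12.8 CPM in WT and 4.20, 4.89 and 6.11 CPM in KO at day 3.

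In the nucleus, *Rbpj* was higher in KO at both days, with 91.3, 91.9 and 70.2 CPM in WT and 126, 121 and 118 CPM in KO at day 0 (0.53 ± 0.13, edgeR adjusted p = 0.0169), and 30.1, 34.6 and 26.3 CPM in WT and 34.9, 49.7 and 44.7 CPM in KO at day 3 (0.51 ± 0.13, adjusted p = 0.0165). These *Rbpj* calls were lost at day 0 without WT replicate 2 (0.53, adjusted p = 0.055) or 3 (0.44, 0.091) or KO replicate 1 (0.48, 0.067) or 3 (0.50, 0.0736), and at day 3 without WT replicate 3 (0.48, 0.0559) or KO replicate 2 (0.46, 0.072) or 3 (0.43, 0.0689). The coactivators moved the other way. *Maml2* was lower in KO at day 0 (-1.72 ± 0.36, adjusted p = 0.00844), and *Maml3* was lower at day 0 (-1.67 ± 0.43, adjusted p = 0.023) and at day 3 (-1.40 ± 0.31, adjusted p = 0.00774). The *Maml3* calls were lost without WT day 0 replicate 3 (-1.19, adjusted p = 0.116), KO day 0 replicate 3 (-1.23, 0.124) and KO day 3 replicate 3 (-1.11, 0.0561). Of the 6 genes listed for the nucleus, which go beyond RBPJ and its coactivators, 5 were called at day 3, where 30.9% of all tested genes were called. *Rbpj* and *Spen* were higher and the 3 Mastermind-like genes lower, with the *Rbpj* and *Maml3* calls subject to the losses above.

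Among targets and modifiers outside the 10 members, *Hey2*, a repressor active in the heart ventricle and arteries, was lower in KO at day 3 (-1.73 ± 0.57, edgeR adjusted p = 0.0417), with 1.35, 3.51 and 9.09 CPM in WT and 0.549, 1.42 and 1.87 CPM in KO. The groups overlapped, and the highest value was that of WT replicate 3. That library stood apart in several marker sums, among them 408 CPM of endothelial and blood markers, and the part of these markers in the value was not tested. The call was lost without WT replicate 2 (-1.67, adjusted p = 0.101) or 3 (-1.06, 0.225) and without KO replicate 1 (-1.43, 0.125), 2 (-2.1, 0.0571) or 3 (-1.72, 0.14). *Hes6*, a HES-family gene that opposes *Hes1*, was higher in KO at day 3 (1.30 ± 0.20, adjusted p = 0.00124), with 22.0, 34.7 and 20.5 CPM in WT and 58.5, 70.6 and 59.1 CPM in KO. Among the Deltex genes, which modify receptor trafficking, *Dtx1* and *Dtx4* had opposite signs at the 2 days. *Dtx4* was lower in KO at day 0 (-1.70 ± 0.23, adjusted p = 0.00122) and higher at day 3 (1.48 ± 0.21, adjusted p = 0.000732), with 13.9 to 16.9 CPM in WT and 38.8 to 47.3 CPM in KO at day 3. *Dtx1* was lower in KO at day 0 (-0.85 ± 0.24, adjusted p = 0.0338) and higher at day 3 (1.10 ± 0.24, adjusted p = 0.00728).

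**Figure D5:**
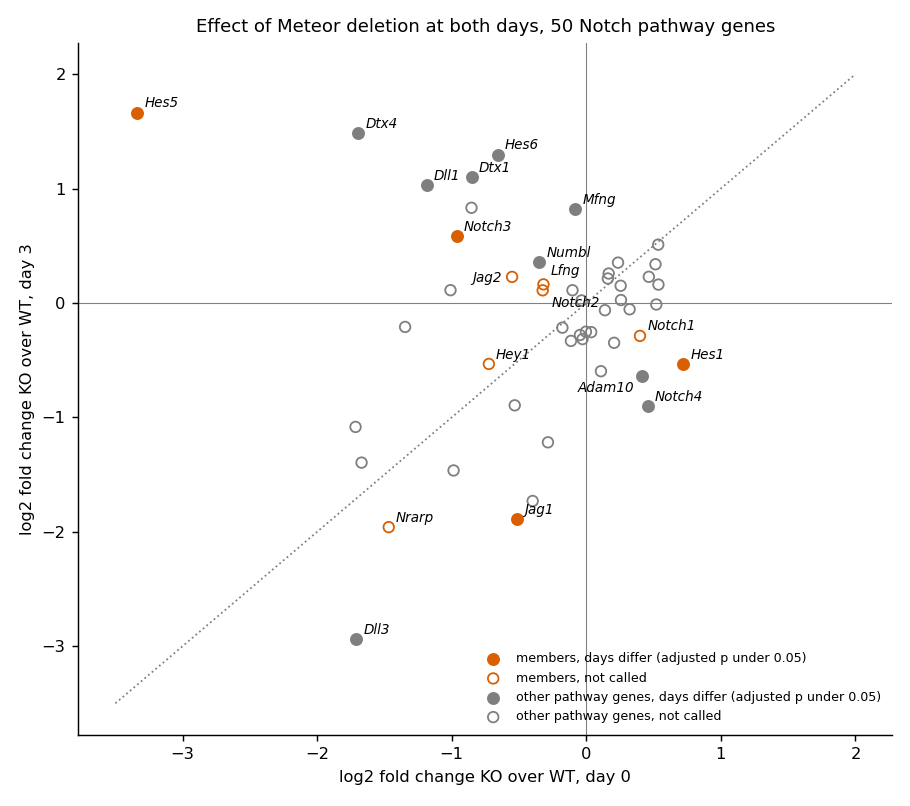
Log2 fold change of KO against WT at day 0 (horizontal) and at day 3 (vertical) for the 50 tested genes of the pathway, 10 members and 40 others, with a dotted line of equality. Filled points are the genes whose KO effect differed between the days (edgeR adjusted p under 0.05), among them *Hes5* and *Notch3* above the line and *Jag1* and *Hes1* below it.

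Genes whose levels ran most like the members with the lowest and the highest log2 fold change at day 3 were looked up among all tested genes by Pearson's r of log2 CPM over the 12 samples, as a description. Like *Nrarp* ran *Itga1* (r = 0.94), *Mab21l2* (0.936), *Emilin3* (0.928), *Serpinb9* (0.924) and *Car2* (0.923). Like *Hes5* ran *Il33* (r = 0.946), *Gm9825* (0.917), *Fetub* (0.904), *Golt1b* (0.897) and *Gm15270* (0.896). The samples share group, library and depth in both genes of a pair, and few reads stand behind *Hes5*. Some members share exon bases with a gene on the other strand, the longest overlap being 2051 bases of *Nrarp* with *Gm38287*, which had 3 reads over all samples. The strand setting of the counting is not given in the sources used here, so reads of such pairs may not be told apart.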

How the data were processed

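Per the labels, poly(A)-selected RNA was sequenced as single reads. The deposited counts are whole-number reads per Ensembl gene that the authors made with HTSeq 0.6.1, after adapter trimming (Cutadapt 1.3) and alignment to the GRCm38 genome by STAR 2.4.2a (tool versions per the submitters' processing notes). Reads aligned to several places, 36.5% to 44.1%, and the summary lines of the files were left out. The label names another kit and sequencer than the paper. Genes above 1 CPM in at least 1 sample entered the fit by edgeR 4.0.16 under R 4.3.3 (quasi-likelihood, TMM, 4 groups, replicate number as a block, 6 residual degrees of freedom), with Benjamini-Hochberg adjustment. The SE is the log2 fold change over the root of F. The fit was tested on simulated data.

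Replicate numbers come from the titles. Over 13805 genes, deviations from the group means were shared by WT and KO libraries with 1 number within a day in all 6 pairs (correlations of 0.294 to 0.657, mean 0.483), and not by those of different days (mean -0.0339). No 2 replicates agreed within sampling noise. The members and lists were chosen with earlier results of these data known. Named are all members, up to 5 other pathway genes called with the largest change each way at each day, and the 5 genes most like *Nrarp* and *Hes5*. Alternatives were no block, a block within each day, only the 6 samples compared, limma-voom (limma 3.58.1), DESeq2 1.42.0, RLE scaling, a minimum of 10 counts, no filter, a log2 fold change above 1, and each library left out. Leaving out both WT libraries numbered 3 was added after the marker levels were seen.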

Additional observations from a re-analysis of the deposited data

Results flagged for a closer look

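A log2 fold change of KO against WT that differed between day 3 and day 0 (edgeR's interaction test, adjusted p under 0.05) was found for 4 of the 10 members. The difference, day 3 minus day 0, was 1.55 for *Notch3*, -1.38 for *Jag1*, -1.25 for *Hes1* and 5.0 for *Hes5*. *Hes5* had at most 7 reads in each sample outside WT day 0, the group through which it passed the filter. It was found for 9 of the 40 other tested genes of the pathway and for 15.5% of all tested genes. Positive differences were those of *Dtx4* (3.18), *Dll1* (2.22), *Hes6* (1.96), *Dtx1* (1.95), *Mfng* (0.90) and *Numbl* (0.71). Negative differences were those of *Notch4* (-1.36), *Dll3* (-1.23) and *Adam10* (-1.05). *Dll1* in KO at day 3 and *Hes1* in KO at day 3 each rested on 3 values of which replicate 3 was far above the others (59.2 and 93.3 CPM).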

How the results depend on the processing

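Among single members, 721 values kept their direction and side of the threshold, 40 gained and 42 lost a call, and 10 changed sign. The number of members called at day 0 was 3, and became 9 with the replicate block within each day and with only the 6 samples compared, 6 with DESeq2, 5 with no filter, 1 with a log2 fold change above 1 and 1 without both WT libraries numbered 3. It ranged from 1 to 3 when 1 library was left out. At day 3 it was 2, and became 5 with the block within each day and 4 with only the 6 samples compared (2 to 3 with 1 library left out). Over time in WT it was 6, and 3 with a log2 fold change above 1 (5 to 7 with 1 library left out), and in KO it was 5 (4 to 5). The difference between the days was called for 4 members, and for 7 with the block within each day (3 to 5 with 1 library left out). Without a replicate block, 3, 2, 5, 4 and 3 members were called in these 5 comparisons. The cause of these moves was not tested.

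Sign changes were all in values that were not called. KO against WT at day 3 became 0.0207 for *Notch1* without both WT libraries numbered 3, and ranged from -0.43 to 0.0437 with 1 library left out (highest without WT day 3 replicate 3). For *Jag2* at day 3 that range was -0.0462 (without WT day 3 replicate 1) to 0.60. Over time in WT *Lfng* became 0.0143 without both WT libraries numbered 3. Over time in KO the range was -0.0677 (without KO day 0 replicate 2, and -0.000549 without KO day 3 replicate 2) to 0.54 for *Jag2*, and -0.0514 (without KO day 0 replicate 3) to 0.59 for *Nrarp*. The difference between the days for *Hey1* ranged from -0.10 (without KO day 0 replicate 3) to 0.47, and was below 0 without WT day 0 replicate 1 or KO day 3 replicate 2 as well. Depth limits *Hes5*, which has at most 7 reads in each sample outside WT day 0 and is not tested with a minimum of 10 counts.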
